A study of Mus musculus with 24 samples.

Results

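Solute carriers form a large superfamily of membrane transporters that move sugars, amino acids, ions, nucleosides, vitamins and metabolites across the plasma membrane and the membranes of organelles. The members described here are the rows of a mouse gene count table whose symbol has the form Slc, family number, letter and member number, and whose level reached 5 CPM (counts scaled to 1000000 per library) in at least 4 of 24 libraries. They numbered 122 of 248 rows with such a symbol, in a table of 18470 rows. They were thus chosen by their measured level over all libraries, which is a description here and carries no test. Among these rows, Slc4a1ap and Slc7a6os are named after a carrier gene and are not carriers themselves.

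RNA was sequenced from class-switched memory B cells (csMBC in the labels) of mice that had breathed in house dust mite allergen and met it again 6 weeks later. The mice labelled SCAP cKO had the genotype SCAP fl/fl hCD20-TamCre, and those labelled WT had SCAP +/+ hCD20-TamCre, so that both groups carried the transgene. This transgene puts a tamoxifen-activated Cre recombinase under the human CD20 promoter, which is active in B cells at large and not in memory B cells alone, and in the cKO mice Scap was deleted before the second exposure. From each genotype the sort yielded CCR6+CD69+ cells of the lung, CCR6-CD69- cells of the lung and circulating cells, with 4 libraries in each of the 6 groups and 2 of the 4 in each of 2 batches. The labels give lung B cells as the source of all libraries, circulating ones included, and do not tie replicates to separate animals, so a p-value here reflects only the spread between samples, which may be technical.

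SCAP is the escort protein that carries the SREBP transcription factors from the endoplasmic reticulum to the Golgi apparatus, where they are cut and released to switch on sterol and fatty acid synthesis. Lymphocytes that meet antigen again take up more glucose, amino acids and iron, and the carriers that bring these in are among the genes that mark metabolic activation. Resting memory B cells rely more on mitochondrial fuel use, which needs the inner-membrane carriers of the SLC25 family.

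Total counts ran from 129025 to 8566243 per library, and the members took 0.82 to 1.17% of them. The smallest libraries, cKO lung CCR6-CD69- replicate 4 with 129025 counts and WT circulating replicate 2 with 356782, held counts for 23 and 68 of the 122 members, whereas 74 to 121 members were detected in each of the other 22. A count of 0 allows a level of up to 0.350 CPM in the largest library and up to 23.3 CPM in the smallest, from counting error alone. Scap itself averaged 82.7 ± 46.3 CPM in cKO and 86.6 ± 31.7 in WT lung CCR6+CD69+ cells, 90.0 ± 64.5 in cKO and 149 ± 25 in WT lung CCR6-CD69- cells, and 223 ± 152 in cKO and 104 ± 84.5 in WT circulating cells (SD, n = 4 each). Counts over the whole gene do not tell whether the floxed part was lost. Of the B cell markers with a row none was at 0 in any group, and their summed level was higher in lung CCR6+CD69+ libraries (21241 to 28595 CPM in cKO, 20415 to 30489 in WT) than in circulating libraries (9499 to 12714 in cKO, 9736 to 16138 in WT). The summed level of 9 NK and T cell markers ran the other way, with 0 to 56.8 CPM in cKO and 16.2 to 34.6 in WT lung CCR6+CD69+ libraries against 1679 to 3436 in cKO and 1410 to 2932 in WT circulating libraries. None of those 9 was at 0 in any group. Fewer cells of a type and less RNA per cell cannot be told apart in such bulk libraries, and the part of these shifts in any carrier result was not tested.

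Most carriers were low and scattered, and few were seen in every library. At least 5 CPM was reached in all 24 libraries by 9 members and in 12 or more by 96, and 10 members had a count in every library. No member owed its place to 1 group alone, and 90 members had a library at 5 CPM in all 6 groups. The 7 members that only just qualified, with exactly 4 libraries, were Slc27a3, Slc35g1, Slc36a2, Slc49a3, Slc4a11, Slc6a9 and Slc9a4, whose lowest level among those 4 lay between 5.07 and 14.7 CPM. Just outside, with 3 libraries, were Slc16a13, Slc18b1, Slc2a9, Slc35d3, Slc35e4 and Slc35f2, whose next highest level lay between 0 and 4.90 CPM.

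The spread between libraries of a group was wide. The median coefficient of variation over the 122 members was 73.0% in cKO and 43.5% in WT lung CCR6+CD69+ libraries, 123% in cKO and 63.0% in WT lung CCR6-CD69- libraries, and 118% in cKO and 107% in WT circulating libraries. For the 25 members that averaged 100 CPM or more it was lower, from 24.9% in WT lung CCR6+CD69+ to 85.1% in cKO lung CCR6-CD69- libraries. All 4 libraries held counts for 87 members in cKO and 113 in WT lung CCR6+CD69+ cells, for 19 in cKO and 101 in WT lung CCR6-CD69- cells, and for 59 in cKO and 51 in WT circulating cells.

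**Figure D1:**
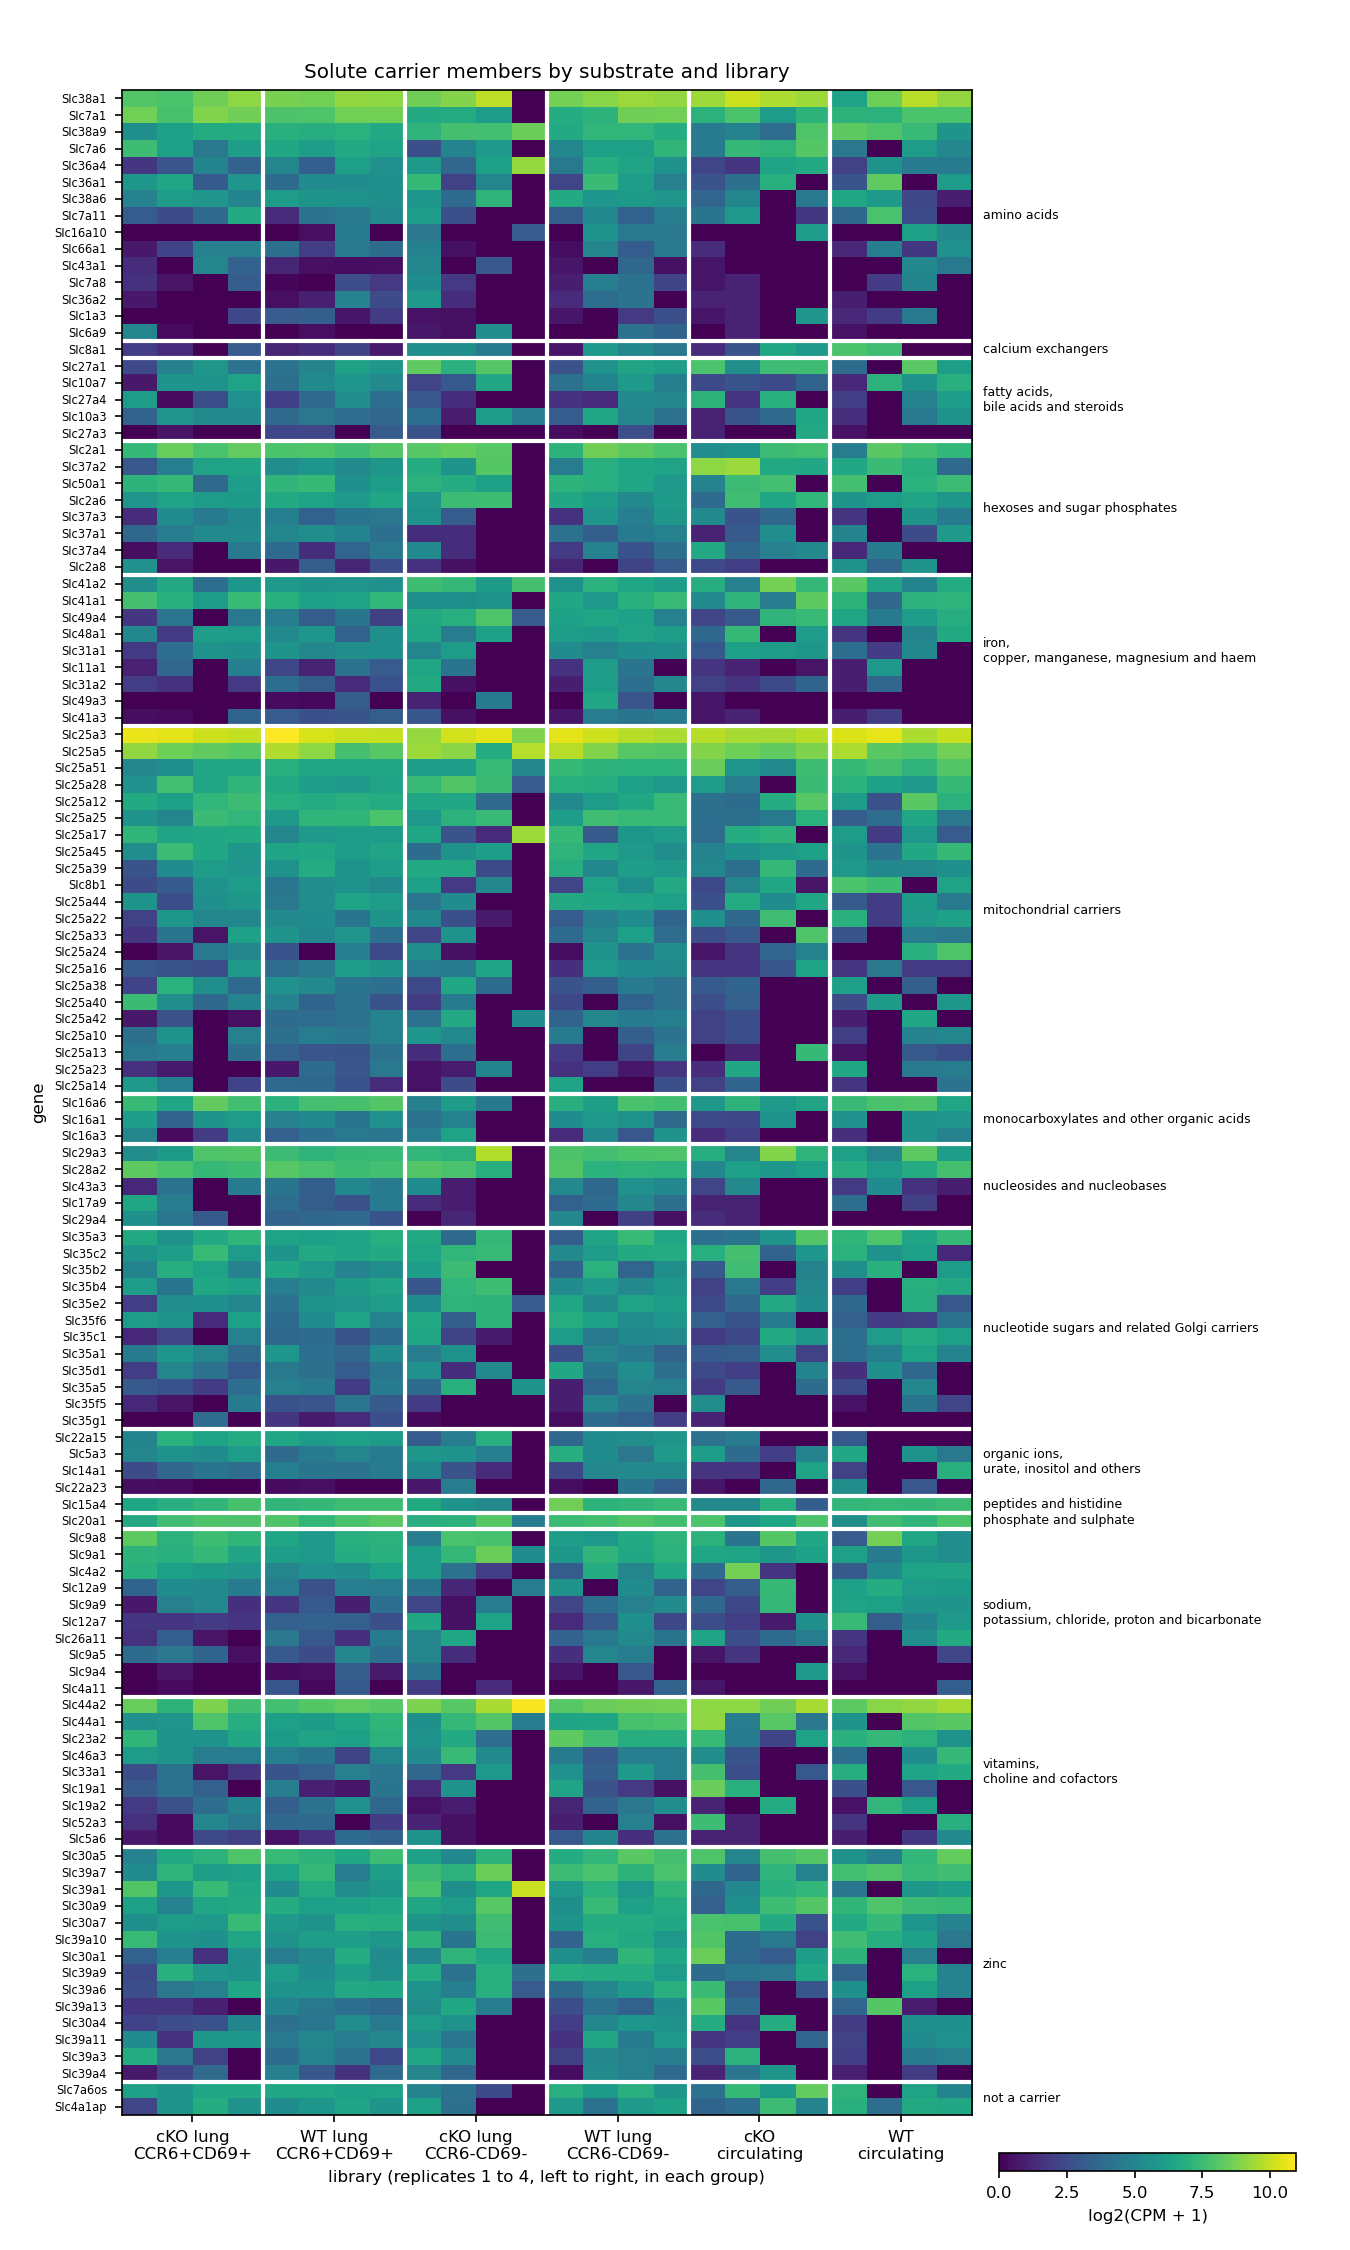
Level of 121 of the 122 members (rows, ordered by substrate class and mean level) in each of 24 libraries (columns, 4 per group), as log2(CPM + 1). Slc25a3, Slc25a5, Slc44a2 and Slc38a1 are bright in nearly every column, and the dark column is the library with 129025 counts.

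By substrate, the largest class among the members was the mitochondrial carriers with 22 of 27 rows, counting Slc25a17, a peroxisomal carrier of the same family. In this class Slc25a3 averaged 1087 CPM and Slc25a5 445 CPM over the 24 libraries. Next were amino acid carriers with 15 of 42, zinc carriers with 14 of 19, nucleotide sugar and related Golgi carriers with 12 of 17, and carriers of sodium, potassium, chloride, protons and bicarbonate with 11 of 26. The classes with the smallest share of their rows among the members were calcium exchangers (1 of 6), organic ions (4 of 21), phosphate and sulphate carriers (1 of 5) and monocarboxylates and other organic acids (3 of 13). Mitochondrial carriers also had the highest summed level, with medians of 2637 CPM in cKO and 2549 in WT lung CCR6+CD69+ cells, 2199 in cKO and 2371 in WT lung CCR6-CD69- cells, and 1935 in cKO and 2596 in WT circulating cells. Per kilobase of exon, the mean level over the 24 libraries was highest, among the members named here, for Slc25a3 (559 CPM per kb), the mitochondrial phosphate carrier, and Slc25a5 (359 CPM per kb), an ADP/ATP exchanger that supplies the cytosol with ATP. Also high were Slc44a2 (130 CPM per kb), a choline transporter-like protein, Slc50a1 (98.9 CPM per kb), a sugar transporter, and Slc2a1 (64.0 CPM per kb), the glucose transporter GLUT1.

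The first question of the design was how the populations differ, and lung cells of both kinds were set against circulating cells over both genotypes. Of the 122 members, 1 passed the threshold (adjusted p under 0.05 by edgeR's quasi-likelihood test with Benjamini-Hochberg adjustment over all 6779 genes tested), against 4.45% of all genes tested, and it was lower in lung. With no adjustment 21 members lay under 0.05, 10 of them higher and 11 lower in lung, which is 17.2% of the members against 17.9% of all genes. The members' median log2 fold change was 0.01, against 0.04 over all genes. DESeq2 called 10 members in the same comparison. The 4.45% is edgeR's share of all genes. That of DESeq2 is not given, so its member counts here and below cannot be set against a background.

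The member called was Slc8a1, the plasma membrane sodium-calcium exchanger NCX1. It was the only member in the class of calcium exchangers as drawn here, since Slc8b1 of the same family was placed with the mitochondrial carriers. Lung CCR6+CD69+ libraries had 2.96, 1.44, 0 and 7.81 CPM in cKO and 1.17, 1.66, 3.78 and 0.723 CPM in WT, and lung CCR6-CD69- libraries had 43.3, 41.3, 21.1 and 0 CPM in cKO and 0.592, 58.8, 33.6 and 19.7 CPM in WT. Circulating libraries had 1.64, 6.27, 92.2 and 57.8 CPM in cKO and 232, 193, 0 and 0 CPM in WT. The levels over 90 CPM were thus all in circulating cells, but 2 of the 4 circulating libraries of each genotype were high and the other 2 were low, so lung and circulating libraries overlapped. The high ones were batch 2 in cKO and batch 1 in WT. The lung populations differed too, with a log2 fold change of -3.44 in CCR6+CD69+ over CCR6-CD69- cells of both genotypes, not called by edgeR. In lung CCR6-CD69- and circulating cells the median levels were 31.2 and 32.0 CPM in cKO, and 26.6 and 96.7 CPM in WT. The low level in lung was thus mainly that of the CCR6+CD69+ cells.

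Slc8a1 averaged 14.9 ± 19.2 CPM in lung (SD, n = 16) and 72.9 ± 93.0 CPM in circulating libraries (n = 8), a log2 fold change of -2.99 ± 0.92 (SE; adjusted p = 0.0453 by edgeR's quasi-likelihood test). Within batch 2 it averaged 10.8 ± 12.5 CPM in lung (n = 8) and 37.5 ± 45.5 CPM in circulating libraries (n = 4), and the fitted value of 1.81 (adjusted p = 0.665 in edgeR) is no measure of size, since both WT circulating libraries were at 0. Within batch 1 it averaged 18.9 ± 24.5 CPM in lung and 108 ± 122 CPM in circulating libraries, with a log2 fold change of -1.95 (adjusted p = 0.295 in edgeR). The call was lost when any of 15 of the 24 libraries was left out (adjusted p = 0.0522 to 0.174 in edgeR), while the fold change was negative without each of the 24. The adjusted p was 0.0635 with no batch term, 0.0515 without the libraries under 500000 counts, 0.0508 without the 2 libraries in which Chil3, a macrophage gene, took most counts, and 0.174, the highest with 1 library left out, without WT circulating replicate 1. The NK and T cell markers were high in all 8 circulating libraries, and their part in the level of Slc8a1 was not tested.

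Several carriers were higher in lung without passing the threshold. Slc22a15, an organic zwitterion carrier, had 29.6, 127, 80.7 and 106 CPM in cKO and 86.0, 65.8, 71.3 and 64.0 CPM in WT lung CCR6+CD69+ libraries. Lung CCR6-CD69- libraries had 8.19, 23.2, 120 and 0 CPM in cKO and 11.8, 38.2, 41.2 and 49.9 CPM in WT, and circulating libraries had 16.4, 20.9, 0 and 0 CPM in cKO and 7.07, 0, 0 and 0 CPM in WT. Every lung CCR6+CD69+ library lay above every circulating library, whereas the lung CCR6-CD69- libraries overlapped with both. Slc22a15 had a log2 fold change of 3.63 ± 1.20 in lung over circulating cells (adjusted p = 0.0672 in edgeR, 8.93e-05 in DESeq2). It was 1.93 within batch 1 (adjusted p = 0.362) and 10.1 within batch 2 (adjusted p = 0.0182), where the 4 circulating libraries held no count and the fitted value is no measure of size.

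Slc29a4, the plasma membrane monoamine transporter that also carries adenosine, was low throughout. It had 44.3, 18.7, 7.69 and 0 CPM in cKO and 10.2, 11.5, 12.2 and 6.15 CPM in WT lung CCR6+CD69+ libraries, and 0, 1.26, 0 and 0 CPM in cKO and 32.9, 0, 3.17 and 0.419 CPM in WT lung CCR6-CD69- libraries. In circulating cells it had 1.64, 1.04, 0 and 0 CPM in cKO and none in the 4 WT libraries. It averaged 9.27 ± 12.9 CPM in lung (n = 16) and 0.336 ± 0.643 CPM in circulating libraries (n = 8; fitted log2 fold change 4.49 ± 1.46, adjusted p = 0.0657, no measure of size with WT circulating at 0).

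Slc25a25, a calcium-regulated mitochondrial carrier of ATP-magnesium and phosphate, was picked out after its values were seen. Lung CCR6+CD69+ libraries had 46.6, 30.6, 174 and 149 CPM in cKO and 59.9, 144, 141 and 232 CPM in WT, and lung CCR6-CD69- libraries had 57.1, 131, 169 and 0 CPM in cKO and 70.5, 194, 169 and 167 CPM in WT. Circulating libraries had 14.8, 15.7, 20.6 and 129 CPM in cKO and 8.40, 14.0, 93.3 and 19.5 CPM in WT. Apart from the smallest library, the lung libraries lay above 30 CPM and 6 of the 8 circulating ones below 21 CPM (log2 fold change 1.80 ± 0.67, adjusted p = 0.117).

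In the other direction, Slc37a2, a sugar phosphate exchanger of the endoplasmic reticulum known from macrophages, averaged 69.5 ± 63.1 CPM in lung and 220 ± 230 CPM in circulating libraries (log2 fold change -1.70 ± 0.59, adjusted p = 0.0846). The circulating libraries had 543, 627, 101 and 92.7 CPM in cKO and 93.7, 174, 117 and 12.6 CPM in WT, and the highest lung library had 268 CPM. The mean in circulating cells therefore rested on the 2 batch 1 libraries of cKO. Slc52a3, a riboflavin transporter, had a log2 fold change of -3.43 ± 1.14 (adjusted p = 0.0698), and its circulating libraries had 187, 1.04, 0 and 0 CPM in cKO and 2.21, 0, 0 and 114 CPM in WT, so that a single library in each genotype made the difference. Without the cKO library at 187 CPM the log2 fold change of Slc52a3 was 0.549, higher in lung, and without the WT library at 114 CPM it was -0.265.

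**Figure D2:**
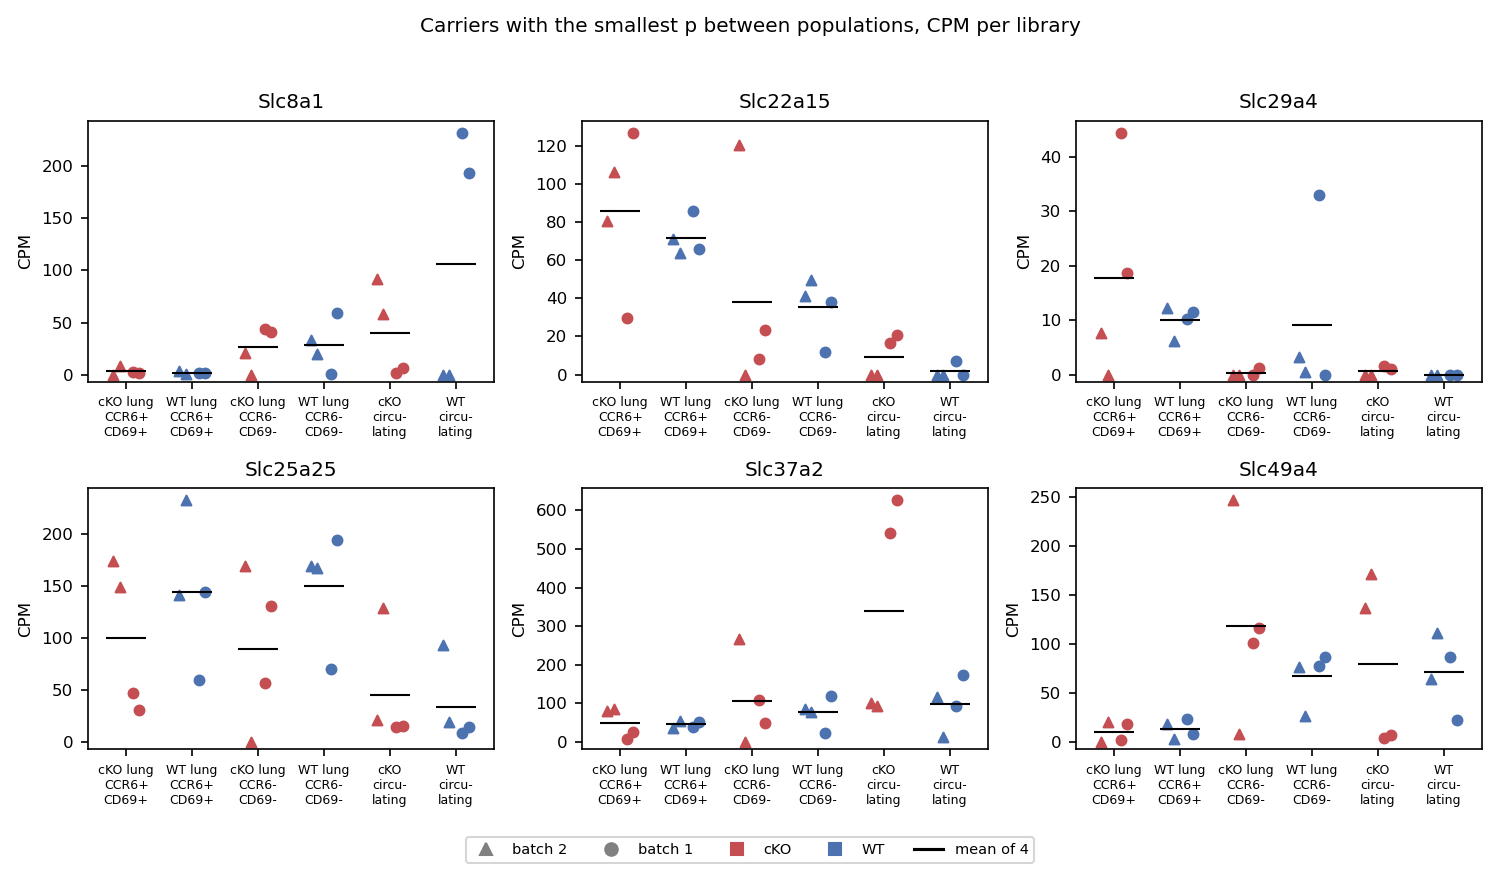
Level in CPM of Slc8a1, Slc22a15, Slc29a4, Slc25a25, Slc37a2 and Slc49a4 in each library, by group, with triangles for batch 2, circles for batch 1 and a line at the mean of 4. Slc22a15 sits at 29.6 CPM or more in all 8 lung CCR6+CD69+ libraries and at 20.9 CPM or less in all 8 circulating ones.

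By class, all 5 members placed with the nucleoside and nucleobase carriers had a positive fold change in lung over circulating cells (median log2 1.50), and none passed the threshold. The 5 count Slc17a9, a carrier of ATP, and Slc29a4, whose fitted value is no measure of size. They include Slc28a2, a concentrative nucleoside transporter, with 301, 232, 161 and 186 CPM in cKO and 275, 223, 185 and 207 CPM in WT lung CCR6+CD69+ libraries against 34.0, 72.1, 55.3 and 72.6 CPM in cKO and 113, 64.5, 105 and 213 CPM in WT circulating libraries. In cKO these groups did not overlap, and in WT 1 circulating library lay among the lung CCR6+CD69+ ones. Of the 22 mitochondrial carriers 15 were higher and 7 lower in lung (median log2 0.13). Of the 9 vitamin and choline carriers 2 were higher and 7 lower (median -0.91), and of the 14 zinc carriers 5 were higher and 9 lower (median -0.32).

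Within the WT mice, the 3 pairs of populations gave no called member. Between lung CCR6+CD69+ and circulating cells 1.18% of all genes tested were called and 0 of 122 members by edgeR. Before adjustment 9 members lay under 0.05 (7.38%, against 11.6% of all genes), and DESeq2 called 2, Slc22a15 and Slc8a1. Between lung CCR6-CD69- and circulating cells 0.177% of all genes were called and 0 members. There 11 lay under 0.05 before adjustment (9.02%, against 8.63%), and DESeq2 called 1, Slc22a15. Between both lung populations 0.295% of all genes were called and 0 members. There 3 lay under 0.05 before adjustment (2.46%, against 3.33%), and DESeq2 called 0.

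In WT mice alone, Slc22a15 averaged 71.8 ± 10.0 CPM in lung CCR6+CD69+, 35.3 ± 16.4 CPM in lung CCR6-CD69- libraries and 1.77 ± 3.54 in circulating libraries (SD, n = 4 each). No level in one of these 3 WT groups overlapped with another. Its log2 fold change was 5.19 ± 1.78 in lung CCR6+CD69+ over circulating cells (adjusted p = 0.190 in edgeR, 0.00306 in DESeq2) and 4.25 ± 1.76 in lung CCR6-CD69- over circulating cells (adjusted p = 0.458 in edgeR, 0.0461 in DESeq2). For Slc29a4 the 4 WT circulating libraries held no count, and against the limit of 3 counts over that group, 0.406 CPM, its mean was at least 24.6-fold higher in lung CCR6+CD69+ cells. In lung CCR6-CD69- cells it was at least 22.5-fold higher, a mean that rested on 1 library at 32.9 CPM.

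Libraries of one WT population lay wholly above or below those of another for 13 of 122 members between lung CCR6+CD69+ and circulating cells (10.7%, against 12.1% of all genes tested). The same held for 6 members between lung CCR6-CD69- and circulating cells (4.92%, against 6.11%) and for 6 between the lung populations (4.92%, against 5.96%). The members' shares were close to those of all genes. Higher in lung CCR6+CD69+ than in circulating libraries were Slc22a15, Slc29a4, Slc35g1, Slc41a3, Slc7a1, Slc7a6 and Slc9a5, and lower were Slc12a9, Slc25a51, Slc30a9, Slc35c1, Slc39a7 and Slc9a9.

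Between the lung populations, over both genotypes, 1.45% of all genes tested were called and 0 of 122 members by edgeR. Before adjustment 14 members lay under 0.05 (11.5%, against 9.79% of all genes), 4 higher and 10 lower in CCR6+CD69+ cells. DESeq2 called 6. The members' median log2 fold change was -0.21, against 0.14 over all genes. With relative log expression factors in place of the trimmed mean of M values the median over all genes was 0.03.

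Slc49a4, a lysosomal carrier of the SLC49 family, had 2.30, 18.7, 0 and 19.9 CPM in cKO and 23.1, 8.31, 18.0 and 3.25 CPM in WT lung CCR6+CD69+ libraries. Lung CCR6-CD69- libraries had 101, 116, 247 and 7.75 CPM in cKO and 77.3, 86.8, 76.7 and 26.8 CPM in WT. Apart from the smallest library, every lung CCR6-CD69- library lay above every CCR6+CD69+ library. The log2 fold change of Slc49a4 was -2.94 ± 0.92 in CCR6+CD69+ over CCR6-CD69- cells (adjusted p = 0.101 in edgeR, 0.00201 in DESeq2), -2.89 within batch 1 and -2.91 within batch 2. Without the libraries under 500000 counts it was -3.20, with an adjusted p of 0.0298.

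Slc16a10, an aromatic amino acid carrier, had no count in any of the 4 cKO lung CCR6+CD69+ libraries and 0, 0.37, 21.8 and 0 CPM in WT ones. Lung CCR6-CD69- libraries had 19.6, 0, 0 and 7.75 CPM in cKO and 0, 47.1, 20.3 and 19.7 CPM in WT. The groups overlapped at 0, and the smallest adjusted p of any member between these populations was that of Slc16a10 (0.0673). Slc22a23, an orphan of the organic ion family, was at 0.37 CPM or less in all 8 lung CCR6+CD69+ libraries, and its lung CCR6-CD69- libraries had 0.646, 24.0, 0 and 0 CPM in cKO and 0.296, 0, 18.4 and 8.80 CPM in WT (adjusted p = 0.0740).

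Slc16a6, a monocarboxylate carrier that exports ketone bodies from zebrafish liver, ran the other way, with a mean of 198 ± 72.1 CPM in lung CCR6+CD69+ libraries, against 89.8 ± 82.1 CPM in lung CCR6-CD69- libraries (SD, n = 8 each; log2 fold change 1.55 ± 0.60, adjusted p = 0.279). For Slc16a6 the lung populations did not overlap in cKO, whereas they overlapped in WT. Zinc carriers had 3 members higher and 11 lower in CCR6+CD69+ cells (median log2 -0.50). The class of iron, copper, manganese, magnesium and haem, as drawn here with Slc49a3 and Slc49a4, had 2 higher and 7 lower (median -0.60). Of all 122 members 53 were higher and 69 lower, while 56.9% of all genes tested were higher. The summed macrophage and monocyte markers differed between these populations too, with 52.8 to 3038 CPM in cKO and 423 to 3554 in WT lung CCR6+CD69+ libraries against 1436 to 48867 in cKO and 1045 to 36721 in WT lung CCR6-CD69- libraries. Of the 11 such markers with a row, Fcgr1 was at 0 in all cKO lung CCR6+CD69+ libraries and Marco in all WT libraries of both lung populations. The 2 of 8 listed plasma cell markers with a row summed to 85.1 to 163 CPM in cKO and 88.7 to 279 in WT lung CCR6+CD69+ libraries against 372 to 1426 in cKO and 338 to 4912 in WT lung CCR6-CD69- libraries, without overlap. In circulating libraries they summed to 317 to 1044 CPM in cKO and 824 to 2641 in WT. The part of these markers in the carrier differences was not tested.

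The second question of the design was whether the loss of SCAP changed the carriers. By edgeR, 0% of all genes tested were called between cKO and WT cells in lung CCR6+CD69+, 0% in lung CCR6-CD69- and 0% in circulating cells, and 0 of 122 members in each. Before adjustment 8, 9 and 6 members lay under 0.05 in these 3 comparisons, or 6.56%, 7.38% and 4.92% of the members, against 2.29%, 7.32% and 10.2% of all genes. DESeq2 called 0 members in lung CCR6+CD69+, 2 in lung CCR6-CD69- (Slc16a6 and Slc44a2) and 0 in circulating cells. With the genotype effect averaged over the 3 populations, 0.118% of all genes and 0 members were called, and DESeq2 called 0 members. Without adjustment 7 members lay under 0.05 (5.74%, against 7.41% of all genes). The median standard error of a member's log2 fold change was 1.42 to 1.52 in comparisons of 4 with 4 libraries, so that effects of several-fold could not be told from no effect here.

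In lung CCR6-CD69- cells the median log2 fold change of cKO over WT was -0.31 over all genes, with 37.4% of them higher. Over the members it was -0.29. All 4 cKO libraries there lay below all 4 WT libraries for 11 members and above them for 0. These 11 are 9.02% of the members, against 5.35% of all genes tested with no overlap in either direction (5.21% lower and 0.148% higher). They were Slc15a4, Slc16a6, Slc17a9, Slc19a2, Slc23a2, Slc25a44, Slc35g1, Slc37a1, Slc41a1, Slc7a1 and Slc7a6os. One of the 4 cKO libraries was the one with 129025 counts, in which most carriers had no count. Without it the 3 remaining cKO libraries lay below all WT libraries for 12 members and above them for 4 (13.1% in all, against 7.23% of all genes). The counts of members with no overlap were 6 in lung CCR6+CD69+ cells (4.92%, against 3.57% of all genes), 3 higher and 3 lower in cKO, and 2 in circulating cells (1.64%, against 2.40%), both lower in cKO.

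Slc15a4 was among those lower in both lung CCR6-CD69- and circulating cells. It is the histidine and peptide carrier of lysosomes that holds the adaptor TASL and is needed for signalling by endosomal Toll-like receptors in B cells and plasmacytoid dendritic cells. Lung CCR6-CD69- libraries had 100, 47.6, 34.6 and 0 CPM in cKO and 379, 135, 146 and 170 CPM in WT. Circulating libraries had 35.1, 35.5, 122 and 8.60 CPM in cKO and 151, 160, 154 and 180 CPM in WT.

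In lung CCR6+CD69+ libraries Slc15a4 had 89.0, 119, 148 and 220 CPM in cKO and 145, 159, 187 and 188 CPM in WT, so that the genotypes overlapped only there. Averaged over the 3 populations the log2 fold change of Slc15a4 was -1.21 ± 0.50 (adjusted p = 0.529), with -1.46 within batch 2 and -1.27 within batch 1. It was -2.03 ± 0.90 in lung CCR6-CD69- cells (adjusted p = 0.614), and -1.70 without the smallest library. Summed plasmacytoid dendritic cell markers reached 1145 to 3216 CPM in cKO and 1188 to 1783 CPM in WT lung CCR6-CD69- libraries, and 2149 to 3644 CPM in cKO and 2001 to 2973 CPM in WT circulating libraries, with none of the 5 at 0.

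Slc16a6 had 26.5, 63.2, 20.3 and 0 CPM in cKO and 120, 72.1, 221 and 196 CPM in WT lung CCR6-CD69- libraries, without overlap. Its log2 fold change was -2.24 ± 0.89 (adjusted p = 0.610 in edgeR, 0.0277 in DESeq2), and -1.89 without the smallest library. Within batch 2 it was -4.01 and within batch 1 -0.898. Its lung CCR6+CD69+ libraries had 169, 86.1, 315 and 200 CPM in cKO and 129, 206, 218 and 262 CPM in WT, and in circulating libraries 55.3, 136, 59.7 and 84.1 CPM in cKO and 167, 221, 242 and 89.6 CPM in WT.

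Slc7a1, the cationic amino acid transporter CAT1 that takes up arginine, followed the same order, with 102, 105, 64.7 and 0 CPM in cKO and 110, 135, 385 and 389 CPM in WT lung CCR6-CD69- libraries. Its lung CCR6+CD69+ libraries had 390, 217, 464 and 383 CPM in cKO and 234, 241, 393 and 394 CPM in WT, and in circulating libraries 129, 233, 66.4 and 136 CPM in cKO and 134, 129, 229 and 232 CPM in WT. Its log2 fold change in lung CCR6-CD69- cells was -1.63 ± 0.77 (adjusted p = 0.654). The cKO effect in lung CCR6+CD69+ cells minus that in lung CCR6-CD69- cells was 1.94 ± 1.03 for Slc7a1 (adjusted p = 1 by edgeR), so that no difference between populations was shown.

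Slc17a9, which loads ATP into vesicles, had 1.51, 0.842, 0 and 0 CPM in cKO and 9.47, 13.2, 32.3 and 15.5 CPM in WT lung CCR6-CD69- libraries (log2 fold change -5.84 ± 2.38, adjusted p = 0.610). Its lung CCR6+CD69+ libraries had 89.0, 23.4, 0 and 0 CPM in cKO and 14.1, 8.31, 5.53 and 21.7 CPM in WT, with the cKO libraries both above and below the WT ones.

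Slc44a2 was the member with a higher level in cKO that DESeq2 called. It had 441, 271, 749 and 1852 CPM in cKO and 273, 350, 385 and 401 CPM in WT lung CCR6-CD69- libraries, where the highest value came from the smallest library and the groups overlapped. Its log2 fold change was 1.31 ± 0.54 (adjusted p = 0.610 in edgeR, 0.0478 in DESeq2), 0.535 without that library, 1.91 within batch 2 and 0.462 within batch 1. Slc39a1, the plasma membrane zinc importer ZIP1, had the smallest p of any member for the genotype effect averaged over populations, with a log2 fold change of 1.49 ± 0.55 (adjusted p = 0.395). Its lung CCR6-CD69- libraries had 226, 42.5, 88.8 and 1054 CPM in cKO and 57.4, 125, 57.1 and 145 CPM in WT. Here too the highest level came from the smallest library, without which the averaged log2 fold change was 1.05.

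**Figure D3:**
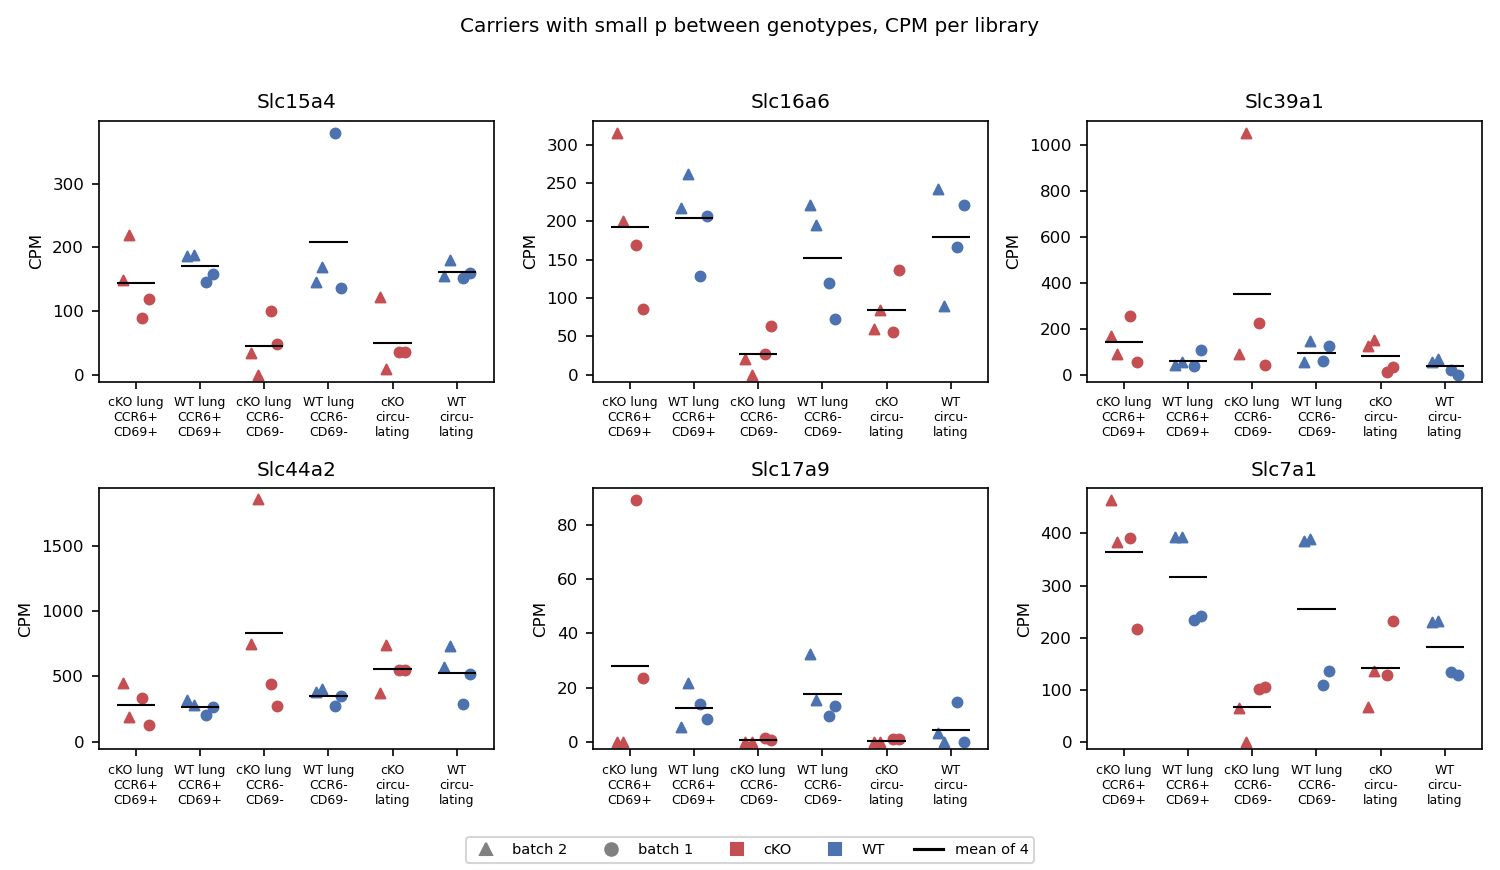
Level in CPM of Slc15a4, Slc16a6, Slc39a1, Slc44a2, Slc17a9 and Slc7a1 in each library, by group, with triangles for batch 2, circles for batch 1 and a line at the mean of 4. The cKO lung CCR6-CD69- libraries of Slc15a4 sit at 100 CPM or less and the WT ones at 135 CPM or more, while the top points of Slc39a1 and Slc44a2 belong to the library with 129025 counts.

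In lung CCR6+CD69+ cells the members with the smallest p were low. Slc36a2, a proton-coupled carrier of small amino acids, had 0.657, 0, 0 and 0 CPM in cKO and 0.35, 0.924, 27.6 and 4.70 CPM in WT, and Slc39a13, a zinc carrier of the secretory pathway, averaged 1.35 ± 1.08 CPM in cKO and 19.1 ± 7.89 CPM in WT (adjusted p = 1 for both by edgeR). For Slc39a13 the groups did not overlap, with a highest cKO level of 2.30 CPM and a lowest WT level of 11.6 CPM. Slc6a9, the glycine transporter GLYT1, rested on 1 cKO library at 31.2 CPM, without which its log2 fold change was -0.02 in place of 5.83.

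In circulating cells Slc37a2 averaged 341 ± 284 CPM in cKO and 99.3 ± 66.9 CPM in WT libraries (SD, n = 4 each; log2 fold change 2.36 ± 0.96, adjusted p = 0.419). Within batch 2 the difference was 0.544 and within batch 1 it was 2.48. Slc27a3, a fatty acid transport protein and acyl-CoA synthetase, had 1.10, 0, 0 and 97.0 CPM in cKO and 0.442, 0, 0 and 0 CPM in WT circulating libraries, so that its fold change rested on 1 library. Slc7a6, a subunit of an amino acid exchanger, averaged 147 ± 102 CPM in cKO and 29.6 ± 27.8 CPM in WT circulating libraries (adjusted p = 0.439). Slc66a1, the lysosomal exporter of cationic amino acids PQLC2, averaged 0.411 ± 0.822 CPM in cKO and 18.6 ± 21.0 CPM in WT (adjusted p = 0.458).

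**Figure D4:**
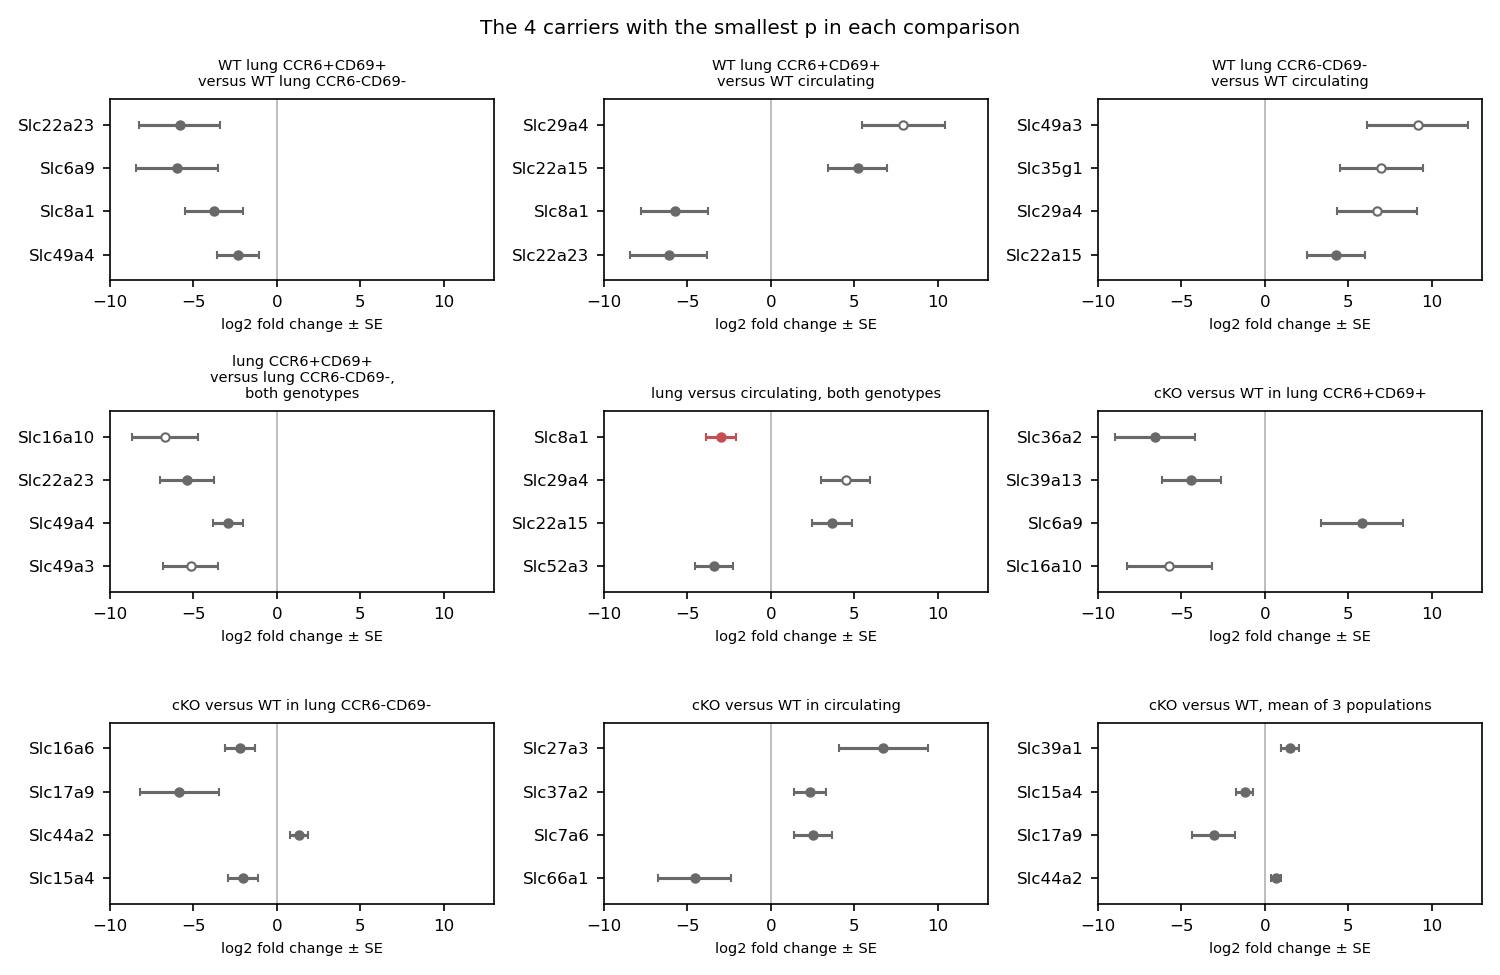
Log2 fold change ± SE of the 4 members with the smallest p in each of 9 comparisons, with the first-named group over the second. Open points mark pairs in which a group held no count, where the fitted value is no measure of size, and red marks the single member under the threshold, Slc8a1 at -2.99.

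No member was called for a difference of the cKO effect between populations. Set against each other, the cKO effects in the lung populations gave 0% of all genes and 0 members called by edgeR. There 2 members lay under 0.05 before adjustment (1.64%, against 3.47% of all genes). The cKO effects in lung CCR6+CD69+ and circulating cells gave 0% of all genes and 0 members. There 7 members lay under 0.05 before adjustment (5.74%, against 5.41%), and DESeq2 called 0 members in both comparisons. The smallest adjusted p was 0.580, for Slc27a3, and rested on the 1 library at 97.0 CPM. A p that misses the threshold does not show that the effects were alike.

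Since SREBPs bind sterol regulatory elements, the RefSeq promoters of the members were searched for the motif TCACNCCAC on both strands, from 250 bases before to 50 after the gene start. A promoter was found for 101 of 122 members, and 2 of them (1.98%) held the motif, against 1.44% of 27025 gene symbols. An E-box, CACGTG, was found in 18 of the 101 (17.8%), against 8.09% of all symbols. The members were chosen by their level in these cells and the 27025 symbols were not, so the sets are unlike. Neither difference in share was tested, and no enrichment among carriers can be read from them. Both sterol motifs are given in capitals with their flanks before the gene start, on the minus strand of the GRCm38.p6 build at chr2:32982215-32982263 for Slc2a8 and chr2:132145321-132145367 for Slc23a2. They are shown because this is a motif that SREBPs bind.
Slc2a8: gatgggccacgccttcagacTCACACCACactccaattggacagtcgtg
Slc23a2: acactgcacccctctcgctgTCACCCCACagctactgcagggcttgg

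A match is a description of the letters and not a binding site. Slc23a2, the vitamin C transporter SVCT2, had 47.8, 102, 14.3 and 0 CPM in cKO and 298, 193, 111 and 111 CPM in WT lung CCR6-CD69- libraries, without overlap (log2 fold change -2.15 ± 1.02, adjusted p = 0.665). In lung CCR6+CD69+ libraries Slc23a2 had 141, 47.8, 47.1 and 90.6 CPM in cKO and 61.4, 82.4, 74.5 and 130 CPM in WT, and in circulating libraries 164, 20.9, 3.69 and 77.9 CPM in cKO and 122, 154, 131 and 48.0 CPM in WT, with overlap in both. Slc2a8, an intracellular glucose transporter, averaged 1.88 ± 2.23 CPM in cKO and 27.0 ± 25.2 CPM in WT circulating libraries (adjusted p = 0.493), and both groups had a library at 0. In lung CCR6+CD69+ libraries Slc2a8 ran the other way, with 11.4 ± 22.4 CPM in cKO (0 to 45.0) and 3.81 ± 3.58 CPM in WT. Its lowest group mean was in cKO lung CCR6-CD69- cells. Both genes were picked out for their motif.

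The carriers known for their use in activated lymphocytes were looked at as a list of 33, of which 20 had a row and 17 were members. In the 11 comparisons of populations and genotypes 0 of the 17 were called, by edgeR or DESeq2. Before adjustment 3 of the 17 lay under 0.05 between genotypes in lung CCR6-CD69- cells (Slc7a1, Slc15a4 and Slc27a1), against 7.32% of all genes. In circulating cells 2 of the 17 did (Slc7a6 and Slc38a1), against 10.2% of all genes. Between the lung populations over both genotypes 2 did (Slc7a1 and Slc27a1), against 9.79%. For lung over circulating cells 1 did (Slc33a1), against 17.9%, and for the averaged genotype effect 1 did (Slc15a4), against 7.41%. The remaining comparisons had none. The amino acid exchanger and glutamine carriers Slc3a2, Slc7a5, Slc1a5 and Slc38a2, the glucose transporter Slc2a3 and the citrate carrier Slc25a1 are not analysed here.

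Of the list, Slc2a1 had 154, 338, 222 and 318 CPM in cKO and 233, 244, 190 and 263 CPM in WT lung CCR6+CD69+ libraries. Lung CCR6-CD69- libraries had 278, 329, 277 and 0 CPM in cKO and 134, 385, 290 and 223 CPM in WT, and circulating libraries had 40.6, 47.0, 180 and 196 CPM in cKO and 23.0, 280, 207 and 152 CPM in WT. The groups overlapped throughout, and the lowest levels other than the smallest library were in circulating batch 1 libraries. Slc38a1, a sodium-coupled glutamine transporter, had 661, 1093, 775 and 644 CPM in cKO and 80.9, 373, 884 and 578 CPM in WT circulating libraries (log2 fold change 1.35 ± 0.64, adjusted p = 0.460). In the lung, Slc38a1 ranged from 232 to 545 CPM in cKO and from 391 to 584 CPM in WT CCR6+CD69+ libraries. Slc29a3, the lysosomal nucleoside transporter ENT3, had 41.1, 61.7, 242 and 254 CPM in cKO and 181, 138, 163 and 163 CPM in WT lung CCR6+CD69+ libraries, so that cKO libraries lay both below and above all WT ones.

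The batches were compared as well, a comparison added after seeing the data. Between batch 2 and batch 1, with the groups held fixed, 7.82% of all genes tested and 2 of 122 members (Slc25a5 and Slc25a3) were called by edgeR, both lower in batch 2. Over all genes the median log2 fold change was -0.39, and over the members -0.22, and both carriers lay below these medians.

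Slc25a3 had 1106 and 988 CPM in batch 2 and 1589 and 1446 CPM in batch 1 of cKO lung CCR6+CD69+ cells, and 1040 and 1015 CPM in batch 2 and 1985 and 1257 CPM in batch 1 of WT lung CCR6+CD69+ cells. In lung CCR6-CD69- cells it had 1439 and 457 CPM in batch 2 and 592 and 1173 CPM in batch 1 of cKO, and 877 and 790 CPM in batch 2 and 1446 and 1113 CPM in batch 1 of WT. In circulating cells it had 721 and 882 CPM in batch 2 and 882 and 728 CPM in batch 1 of cKO, and 775 and 1005 CPM in batch 2 and 1278 and 1514 CPM in batch 1 of WT. The batches did not overlap in the 3 WT groups and in cKO lung CCR6+CD69+ cells, and overlapped in the other cKO groups. The log2 fold change of Slc25a3 was -0.81 ± 0.23 (adjusted p = 0.0163).

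Slc25a5 averaged 331 ± 185 CPM in batch 2 and 559 ± 184 CPM in batch 1 (SD, n = 12 each; log2 fold change -1.21 ± 0.32, adjusted p = 0.00753). Its highest batch 2 level, 853 CPM, came from the library with 129025 counts, and without that library the log2 fold change was -1.50. Genes of the ADP/ATP exchangers have near-identical processed copies in mammalian genomes, so the counting may have split their reads. Every group had 2 libraries in each batch, and batch was a term in every test over all libraries.

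**Figure D5:**
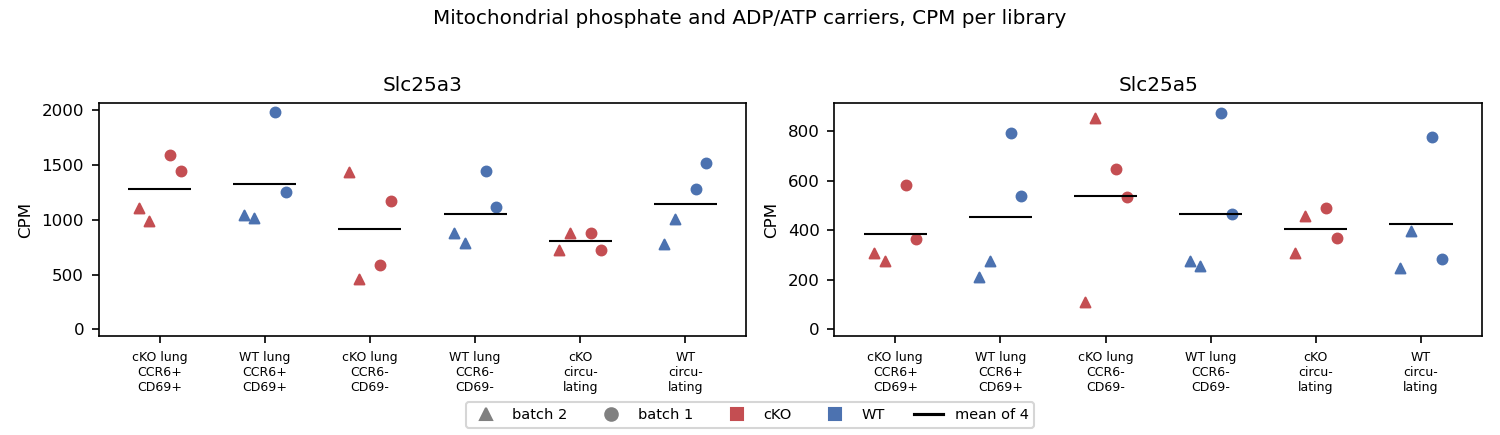
Level in CPM of Slc25a3 and Slc25a5 in each library, by group, with triangles for batch 2, circles for batch 1 and a line at the mean of 4. In the 3 WT groups the triangles of Slc25a3, at 775 to 1040 CPM, lie below the circles, at 1113 to 1985 CPM.

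Slc20a1, a sodium-phosphate cotransporter that also serves as a retrovirus receptor, had 97.2, 191, 246 and 240 CPM in cKO and 243, 150, 223 and 285 CPM in WT lung CCR6+CD69+ libraries, and it overlapped between genotypes in each population, with no called difference.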

How the data were processed

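PolyA RNA of the sorted cells was extracted with a Zymo microprep kit and built into libraries with a low-input version of the xGen broad-range kit, per the labels' protocols. The authors deposited raw counts per gene symbol, 1 column per library. FastQC, STAR, Salmon and the mm39 build appear in the submitters' processing notes without versions or roles, and whether counting used strand is not given in the sources used here. The counts were scaled to CPM by column totals for display. Tests used edgeR 4.0.16 in R 4.3.3 on the counts: TMM factors, the filterByExpr filter by group (6779 genes kept, with all 122 members), terms for group and batch over 24 libraries, and a robust quasi-likelihood F-test. P-values were adjusted by Benjamini-Hochberg over all genes tested, with a threshold of 0.05, and SEs are the log2 fold change over the root of F. The fitted common dispersion of 1.20 corresponds to a biological coefficient of variation of 1.10. Alternatives were DESeq2 1.42.0, RLE (relative log expression) factors, a stricter or no filter, no batch term, the replicate number as a block, only the groups compared, leaving out small libraries, Chil3-led libraries or each library in turn, and, added after seeing the data, each batch alone.

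Members named are those past the threshold, the 4 with the smallest p in each comparison, the 2 highest of each substrate class, and a list of lymphocyte carriers; a few more are marked in the text, and 1 member that the rule names is not reported here. The members and lists were chosen with earlier results of these data known. Libraries of a group differed by more than sampling noise (lowest chi-square per degree of freedom 16.7). Promoters came from RefSeq (GRCm38.p6), and exon lengths from GENCODE on GRCm38, matched by symbol for 119 members. Carriers without a row were not analysed.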

Additional observations from a re-analysis of the deposited data

Results flagged for a closer look

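Levels were screened for a library far from the other 3 of its group, for 25 of the carriers named here. Of 150 sets of 4 libraries, 27 had such a library, 25 high and 2 low. The critical value used is meant to flag about 1 in 20 sets by chance, a rate that does not hold for carriers with many zeros. With 3 libraries of a set at 0, any count in the other is flagged, so no excess can be read from the 27. High single libraries stood mostly in the shallow or low groups. In circulating cells they were Slc52a3 at 187 CPM in cKO replicate 1 and 114 in WT replicate 4, Slc25a25 at 129 in cKO replicate 4 and 93.3 in WT replicate 3, Slc27a3 at 97.0 in cKO replicate 4 and 0.442 in WT replicate 1, and Slc22a23 at 11.8 in cKO replicate 3 and 42.0 in WT replicate 1. Further circulating ones were Slc16a10 at 64.5 in cKO replicate 4, Slc22a15 at 7.07 and Slc36a2 at 0.884 in WT replicate 1, and Slc29a3 at 293 in WT replicate 3.

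In lung CCR6-CD69- cells they were Slc36a2 at 58.2 CPM and Slc27a3 at 5.82 in cKO replicate 1, Slc22a23 at 24.0 and Slc29a4 at 1.26 in cKO replicate 2, Slc15a4 at 379, Slc28a2 at 257 and Slc29a4 at 32.9 in WT replicate 1, and Slc52a3 at 26.0 and Slc27a3 at 5.07 in WT replicate 3. In lung CCR6+CD69+ cells they were Slc36a2 at 0.657 in cKO replicate 1 and 27.6 in WT replicate 3, Slc27a3 at 0.478 in cKO replicate 2, and Slc16a10 at 21.8 in WT replicate 3.

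The 2 low libraries were Slc2a1 at 0 CPM in cKO lung CCR6-CD69- replicate 4, the library with 129025 counts, and Slc49a4 at 26.8 CPM in WT lung CCR6-CD69- replicate 4.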

How the results depend on the processing

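The number of members called changed with the tool and the libraries used. DESeq2 called 2 (WT lung CCR6+CD69+ over circulating), 1 (WT lung CCR6-CD69- over circulating), 2 (cKO over WT in lung CCR6-CD69-), 6 (lung CCR6+CD69+ over CCR6-CD69-, both genotypes), 10 (lung over circulating) and 11 (batch), where edgeR called 0, 0, 0, 0, 1 and 2. For lung over circulating, the count was 2 with relative log expression factors, 3 with no filter, 2 without the libraries under 500000 counts, 3 in batch 1 alone, and 0 to 4 with a library left out. For lung CCR6+CD69+ over CCR6-CD69- it was 1 with no filter, 1 without the small libraries, 1 without the Chil3-led libraries, and 0 to 2 with a library left out. For WT lung CCR6+CD69+ over circulating it was 0 to 1 with a library left out, and between batches it was 4 without the Chil3-led libraries. The causes were not tested, and the shares of all genes called under these settings are not given beside the counts.

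The sign of the fitted value turned for Slc22a23 between the WT lung populations (0.356 in batch 1 alone), for Slc8a1 in batch 2 alone (5.31 for WT lung CCR6+CD69+ over circulating and 1.81 for lung over circulating, both resting on WT circulating libraries at 0), and for Slc52a3 in lung over circulating (0.374 in batch 2 alone, with the cKO circulating libraries at 0, and -4.33 to 0.549 with a library left out). For Slc6a9 between genotypes in lung CCR6+CD69+ cells the range with a library left out was -0.0247 to 7.40.

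With the replicate number as a block, 0 members were called for lung over circulating (Slc8a1, adjusted p = 0.0724), and counts elsewhere stayed within 1.5 times. Of 36 pairs of same-numbered libraries, 11 had deviations from the group means correlated at 0.1 or under (range -0.0451 to 0.228), so the numbers were not taken to pair samples. For carriers near the limit of a count of 0, which was 0.350 to 23.3 CPM, absence and low level cannot be told apart.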
